A study of Mus musculus with 2 samples.

Results

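Vwf, Plvap, Cd34, Ly6a, Edn1, Aqp1, Apln, Sox17, Gja4 and F5, 10 of the 32285 genes counted, are genes of the cells that line blood vessels. They were taken by symbol from the list of counted genes. The set was chosen on their measured UMIs per 1000000 UMIs in sinusoidal against Vwf-positive endothelial cells and in other cell types of both libraries, as genes of capillarised or arterial endothelium. Their levels in sinusoidal cells, in Vwf-positive endothelial cells and in other cell types are therefore given as a description, with no test. The cells were non-parenchymal liver cells, that is liver cells other than hepatocytes, freshly isolated and profiled by droplet single-cell RNA sequencing with Chromium 3′ v3 reagents. One library came from Mfap2+/+ mice (wild type) and 1 from Mfap2-/- mice (knockout), which lack the microfibril glycoprotein encoded by Mfap2. Both groups had received carbon tetrachloride (CCl4), a hepatotoxin that causes fibrosis, by intraperitoneal injection for 8 weeks, so both are injured livers. The labels give neither the strain, age or number of animals nor whether cells were pooled. With 1 library per genotype, genotype, animal and library preparation cannot be told apart, no test between genotypes exists, and all intervals below are 95% intervals for counting error only.

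The smallest vessels of the liver, the sinusoids, are lined by endothelial cells with open pores (fenestrae) and almost no basement membrane, which lets plasma reach the hepatocytes. In chronic injury these cells can lose their pores and take on features of ordinary capillaries, a change called capillarisation. Genes used to follow it include Vwf, which encodes the platelet-binding von Willebrand factor, Plvap, which encodes the diaphragm protein of fenestrae and caveolae, and the surface antigens Cd34 and Ly6a (Sca-1). Portal vessels, central veins and arteries express part of the same set in healthy liver. Edn1 encodes endothelin-1, a vasoconstrictor that acts on stellate cells, Aqp1 a water channel, and Apln the peptide apelin, a ligand made by sprouting vessels. Sox17 encodes a transcription factor of arterial endothelium and Gja4 the gap junction protein connexin 37, enriched in arteries. F5 encodes coagulation factor V, made mainly by hepatocytes.

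On GRCm38 with GENCODE M21, Vwf spans chr6:125546774-125686679 and Aqp1 chr6:55336432-55348555, both on the forward strand. Plvap spans chr8:71497765-71511752 and Ly6a chr15:74994877-74998031, both on the reverse strand. Cd34 (chr1:194938819-194961279) and F5 (chr1:164151838-164220277) are on the forward strand of chromosome 1, and Sox17 (chr1:4490931-4497354) is on its reverse strand. Edn1 spans chr13:42301476-42307990 on the forward strand, Gja4 chr4:127311421-127314039 and Apln chrX:48025146-48034853 on the reverse strand. Plvap overlaps Gtpbp3, Cd34 Gm16897, Edn1 Gm47118, Sox17 Gm37587 and F5 Gm16548, each on the opposite strand, and F5 also overlaps Gm16588 on its own strand. The sources used here do not say whether counting used strand, so reads of these partners cannot be told apart. Ly6a belongs to a cluster of closely similar Ly6 genes and its counts are uncertain to that extent.

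Promoter sequences are shown because all 10 genes had a lower level in the knockout in 1 endothelial cluster and 9 of 10 in another, as given below. RefSeq promoter entries on GRCm38.p6 were found for 6 genes, Cd34, Edn1, Aqp1, Apln, Gja4 and F5, and not for Vwf, Plvap, Ly6a and Sox17. The 250 bases before the annotated start are shown for 4 genes with motif matches, 5′ to 3′ on the gene's strand. Capitals mark the matches: an interferon-stimulated element in Edn1 (chr13:42301226-42301475, forward strand), an RBPJ match and then an ETS match in Aqp1 (chr6:55336049-55336298, forward strand), and 1 ETS match each in Apln (chrX:48034854-48035103, reverse strand) and F5 (chr1:164151585-164151834, forward strand).
Edn1: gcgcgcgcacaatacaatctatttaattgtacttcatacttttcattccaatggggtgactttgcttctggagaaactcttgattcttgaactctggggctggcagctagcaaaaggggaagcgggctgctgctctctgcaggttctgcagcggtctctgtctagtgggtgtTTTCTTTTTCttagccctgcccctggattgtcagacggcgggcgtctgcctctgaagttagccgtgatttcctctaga
Aqp1: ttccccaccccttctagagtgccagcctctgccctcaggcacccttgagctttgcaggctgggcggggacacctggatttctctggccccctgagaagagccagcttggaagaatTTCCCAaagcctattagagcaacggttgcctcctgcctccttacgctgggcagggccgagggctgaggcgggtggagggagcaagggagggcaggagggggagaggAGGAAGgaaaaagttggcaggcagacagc
Apln: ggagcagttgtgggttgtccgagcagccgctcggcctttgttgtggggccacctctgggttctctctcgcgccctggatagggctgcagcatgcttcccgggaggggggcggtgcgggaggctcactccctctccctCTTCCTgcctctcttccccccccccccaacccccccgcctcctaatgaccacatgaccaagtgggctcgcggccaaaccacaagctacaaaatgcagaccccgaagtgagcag
F5: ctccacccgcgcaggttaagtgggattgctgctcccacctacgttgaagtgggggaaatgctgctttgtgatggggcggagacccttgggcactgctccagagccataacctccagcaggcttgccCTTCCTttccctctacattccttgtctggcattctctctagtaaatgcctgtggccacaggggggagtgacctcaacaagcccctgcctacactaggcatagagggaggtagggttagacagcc
Both strands were searched for exact letters, and no 2 matches overlap. ETS (AGGAAG) was found in 4 of the 6 promoters, those of Cd34, Aqp1, Apln and F5, and in 29.6% of 32536 promoter windows of 250 bases. RBPJ (TGGGAA), the Notch effector's motif, was found in Aqp1 and in 21.6% of windows. The interferon-stimulated response element was found in Edn1 and in 2.98% of windows. The SOX motif (AACAAT) was found in none of the 6, against 9.35% of all windows. The GATA motif (AGATAA) was likewise found in none of the 6, against 9.97% of all windows. The AP-1 motif (TGANTCA) was also found in none of the 6 promoters, against 6.73% of all windows. A match is a string of letters and shows no binding.

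After quality filters and removal of likely doublets, 10336 wild-type and 11428 knockout cells were kept, with medians of 4695.5 and 6286 unique molecular identifiers (UMIs, tags that each mark 1 RNA molecule). Mfap2 itself had 215 UMIs in the wild type against 2 in the knockout. The libraries shared 40 cell barcodes, and none of these was endothelial-like in both. Clusters built without the 10 genes included 3 clusters with the pan-endothelial markers, 1221 wild-type and 1619 knockout cells, called endothelial-like here. A deep cluster led by Stab2, a scavenger receptor of sinusoidal cells, held 601 and 987 of these cells at median depths of 5436 and 7201 UMIs. A shallow cluster that also expressed Stab2 held 409 and 412 cells at 1324 and 1463 UMIs, with median mitochondrial shares of 9.81% and 8.79%. Another cluster, led by Selp (P-selectin) and the central vein gene Rspo3, held 211 and 220 cells at 7797 and 10327.5 UMIs. Edn1 and Vwf were themselves among its 10 leading genes, so their excess there is part of how the cluster is described. None of the 3 clusters had a gene of the arterial list among its 10 leading genes. Gja5 stood at 29.3 and 36.7 CPM and Hey1 at 7.04 and 6.94 CPM in the Selp-led cluster, where CPM is UMIs per 1000000 UMIs of the population.

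Marker gates were also set on the cells. The sinusoidal gate (at least 5 UMIs of Stab2, Clec4g, Gpr182 and Oit3 together) took 963 wild-type and 1436 knockout cells, of which 94.5% and 92.6% lay in the endothelial-like clusters. The Vwf-positive gate (at least 5 UMIs of 8 pan-endothelial genes, at least 1 of Vwf, and not sinusoidal) took 152 and 121 cells. Only 67.1% and 51.2% of these lay in the endothelial-like clusters, and macrophages were the commonest others. The median depth of the gate's cells was 8457 and 12681 UMIs. The Vwf-positive gate is given mainly for its 102 wild-type and 62 knockout endothelial-like cells, a restriction added after these shares were seen. In addition, 121 and 158 cells of the Selp-led cluster carried enough Stab2-group UMIs to pass the sinusoidal gate. Most gated cells also held 3 or more UMIs of other lineages' markers, such as Ptprc, C1qa and Col1a1. Their share was 80.6% and 86.6% in the sinusoidal gate and 87.5% and 90.9% in the Vwf-positive gate. The source of those UMIs was not tested.

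In cells of the sinusoidal gate, 8 of the 10 genes were at least 1.5-fold lower in the knockout library and none was higher by that much. Over all 15186 genes with at least 20 UMIs there, 8.42% were lower by that much, and the median log2 ratio of knockout over wild type was 0.03. The 10 genes had a median of -0.92, from -0.20 for Cd34 to -2.16 for Apln. In the same gate 9 mesenchymal markers, none at 0, summed to 704 CPM in the wild type against 315 CPM in the knockout, and their part in these ratios was not tested. Held to endothelial-like clusters, 6 of the 10 genes were lower (background 13.2%, median -0.87), and Plvap (1.45-fold) and Aqp1 (1.43-fold) fell short of 1.5-fold. The number lower was 7 of 10 in the deep Stab2-led cluster (background 15.9%, median of the 10 genes -1.18). It was 4 of 9 in the shallow Stab2-led cluster (background 13.9%, median -0.41), where Apln was too sparse to enter. It was 4 of 10 in the Selp-led cluster (background 10.8%, median -0.50). Over all endothelial-like cells 7 of 10 were lower (background 12.8%, median -0.94). These counts belong to genes chosen with their values known and are no evidence beyond the values themselves.

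**Figure D1:**
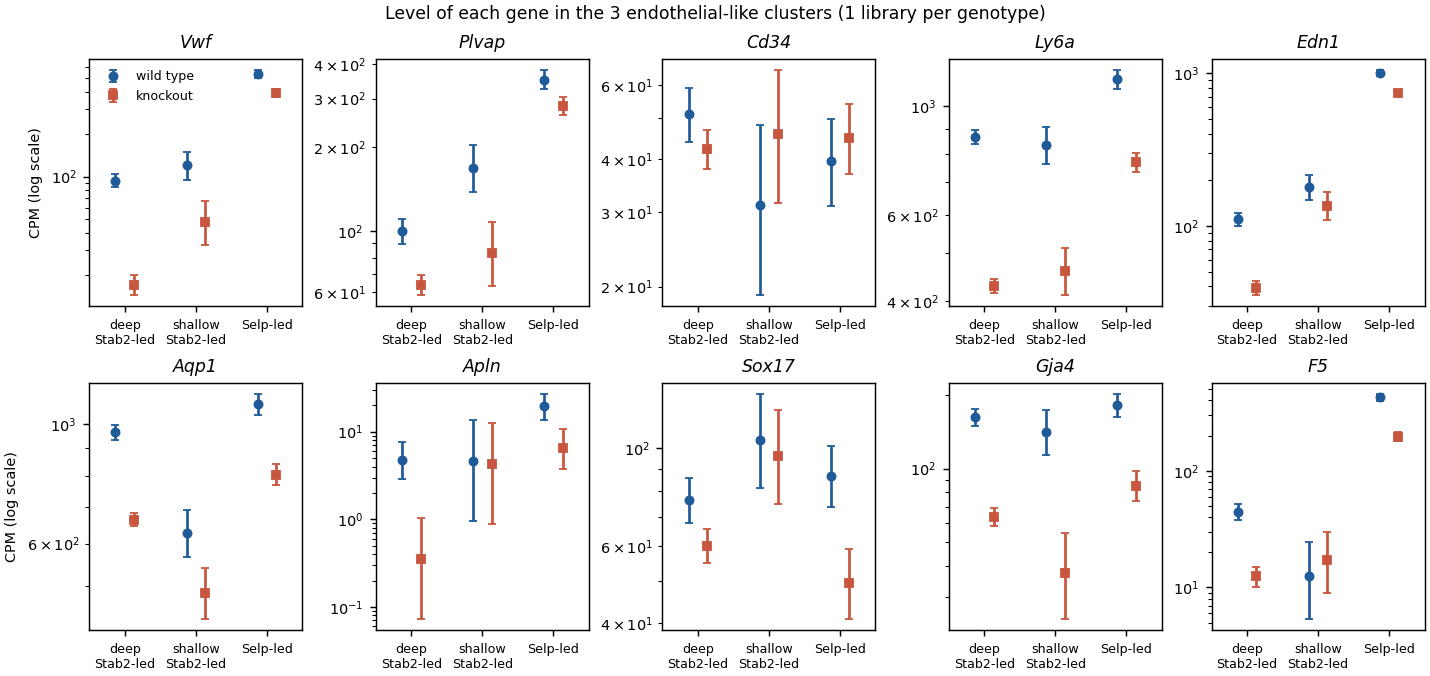
Level of each of the 10 genes (CPM, log axis) in the 3 endothelial-like clusters, wild type as circles and knockout as squares, with exact Poisson 95% intervals. Vwf, Plvap, Edn1 and F5 are highest in the Selp-led cluster in both libraries, and the separation of the libraries for Vwf and Edn1 is widest in the deep Stab2-led cluster.

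Vwf, a gene often used to mark capillarised or large-vessel endothelium, had the lowest ratio of the 10 genes in the deep Stab2-led cluster apart from Apln, which had few UMIs. Its level there was 93.3 CPM (83.8 to 104, 349 UMIs) in the wild type against 17.1 CPM (14.4 to 20.1, 144 UMIs) in the knockout. The wild type was 5.47 times higher (log2 ratio -2.44, -2.74 to -2.17). The shallow Stab2-led cluster had 120 and 47.5 CPM (log2 -1.32, -1.98 to -0.74). The Selp-led cluster had 534 and 394 CPM, a smaller difference (log2 -0.44, -0.57 to -0.31). The interval of the ratio in the Selp-led cluster did not overlap those in the Stab2-led clusters.

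Shares of cells were compared at equal depth, by thinning each cell with at least 1000 UMIs to that number. Shallower cells were left out, 120 of 409 wild-type and 102 of 412 knockout cells of the shallow Stab2-led cluster, 3 knockout cells of the deep one and none of the Selp-led cluster. For Vwf that share was 8.49% of 601 cells (wild type) and 1.32% of 984 (knockout) in the deep Stab2-led cluster. In the shallow cluster it was 8.30% and 3.87%, and in the Selp-led cluster 35.1% and 25.5%, with intervals that overlap in both. B-like cells, which should lack Vwf, had 0.675% and 0.237% at the same depth. Without thinning, 28.8% of wild-type and 8.61% of knockout cells of the deep Stab2-led cluster had a Vwf UMI.

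Platelet RNA moved with Vwf in the deep Stab2-led cluster. Platelets carry Vwf, and the 6 platelet markers summed to 124 CPM in the wild type against 38.9 CPM in the knockout there, with none of the 6 at 0 in either library. They summed to 47.1 and 61.7 CPM in the Selp-led cluster, and in B-like cells to 25.5 and 12.6 CPM. Cells with a platelet-marker UMI were 30.1% of the deep cluster in the wild-type library and 18.8% in the other. Without those cells Vwf stood at 86.8 and 15.9 CPM there (log2 -2.44, -2.81 to -2.10), against a log2 ratio of -2.44 with them. Without cells holding a platelet-marker UMI the ratio was -0.47 in the Selp-led cluster. A cell with no marker UMI can still hold platelet RNA, and its part in these ratios was not tested.

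Plvap, the diaphragm protein gene, was lower in the knockout in each cluster. In the deep Stab2-led cluster it stood at 99.7 CPM (89.9 to 110) in the wild type against 63.9 CPM (58.6 to 69.5) in the knockout, a log2 ratio of -0.64 (-0.84 to -0.45). In the shallow cluster the levels were 169 and 83.4 CPM (log2 -1.01, -1.50 to -0.54). Selp-led cells had 351 and 282 CPM (log2 -0.32, -0.47 to -0.16). After thinning, 26.5% and 25.5% of Selp-led cells had a Plvap UMI, shares whose intervals overlap, whereas 8.65% and 4.78% of deep Stab2-led cells did.

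Ly6a, the Sca-1 gene, was lower in the knockout in all 3 clusters, with non-overlapping intervals in each. The deep Stab2-led cluster had 865 CPM (835 to 895) in the wild type against 429 CPM (415 to 443) in the knockout, a log2 ratio of -1.01 (-1.08 to -0.94). The shallow cluster had 832 and 460 CPM (log2 -0.85). The Selp-led cluster had 1134 and 768 CPM (log2 -0.56, -0.65 to -0.47). Thinned to equal depth, 49.9% of wild-type and 28.9% of knockout cells of the deep cluster carried a Ly6a UMI, beside 14.9% and 13.8% of B-like cells, which can express Ly6a themselves.

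Cd34, a sialomucin of capillary endothelium and progenitors, differed least. In the deep Stab2-led cluster it stood at 51.1 CPM (44.1 to 58.9) in the wild type against 42.3 CPM (38.0 to 46.9) in the knockout (log2 -0.27, -0.53 to -0.01). In the shallow cluster it stood at 31.3 and 46.0 CPM, and in the Selp-led cluster at 39.5 and 44.9 CPM. Both intervals of the ratio included 0 (-0.29 to 1.44 and -0.26 to 0.63). Cd34 was thus the member without a common direction over the 3 clusters, along with F5.

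Edn1, the endothelin-1 gene, had its lowest level in the deep Stab2-led cluster and its highest in the Selp-led cluster in both libraries. The deep cluster had 110 CPM (99.8 to 121) in the wild type against 39.2 CPM (35.1 to 43.7) in the knockout, so the wild type was 2.81 times higher (log2 -1.49, -1.70 to -1.28). The shallow cluster had 180 and 135 CPM (log2 -0.41, -0.82 to -0.01). The Selp-led cluster had 995 and 739 CPM (log2 -0.43, -0.52 to -0.33). Few cells carried much of the Edn1 RNA of the deep cluster: the 5 richest held 18.9% of its UMIs in the wild type against 31.4% in the knockout.

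The receptor and processing enzyme of endothelin differed less than the ligand. Ednrb, the endothelin receptor of endothelial cells, stood at 375 CPM in both libraries in the deep Stab2-led cluster (log2 0.00, -0.09 to 0.09). Ece1, which cleaves the endothelin precursor, stood at 159 CPM in the wild type against 116 CPM in the knockout there (log2 -0.45, -0.60 to -0.30). Selp-led cells had log2 ratios of -0.04 for Ednrb and -0.14 for Ece1. Ednra, the receptor of contractile cells, had too few UMIs in these clusters to enter. Of the 8 genes of the endothelin and vasomotor list with enough reads in the deep cluster, 1 was at least 1.5-fold higher (background 11.2%) and 2 were lower (background 15.9%). The higher gene was Calcrl, a receptor of adrenomedullin, at 551 CPM in the wild type against 876 CPM in the knockout (log2 0.67). The lower genes were its partner Ramp2 (483 and 317 CPM, log2 -0.61) and the prostacyclin synthase gene Ptgis (3.74 and 1.66 CPM, log2 -1.17, -2.35 to 0.00).

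Aqp1, the water channel gene, was lower by similar amounts in all 3 clusters. It stood at 964 CPM (933 to 996) in the wild type against 665 CPM (647 to 682) in the knockout in the deep Stab2-led cluster (log2 -0.54, -0.60 to -0.48). The shallow cluster had 627 and 486 CPM (log2 -0.37, -0.58 to -0.15), and the Selp-led cluster 1087 and 805 CPM (log2 -0.43, -0.52 to -0.34). These 3 intervals overlap in part, and no ratio reached 1.5-fold. Thinned shares were 55.9% and 41.1% of cells in the deep cluster and 64.0% and 51.4% in the Selp-led cluster.

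Apln, the apelin gene, was sparse. Over all endothelial-like cells it had 57 UMIs in the wild type (9.16 CPM, 6.93 to 11.9) and 22 in the knockout (1.90 CPM, 1.19 to 2.88), a log2 ratio of -2.23 (-3.05 to -1.54). Of these, 36 and 16 UMIs (19.5 and 6.53 CPM) were in the Selp-led cluster. The deep Stab2-led cluster had 18 and 3 UMIs, a ratio of -3.42 with a wide interval (-6.16 to -1.98), and the 5 richest wild-type cells held 94.4% of those 18. In the shallow cluster each library had 3. At 1000 UMIs per cell only 0.545% and 0.198% of endothelial-like cells carried an Apln UMI, so the difference rests on few cells. Of the 9 tip cell and sprouting genes with enough reads in the deep cluster, 3 were at least 1.5-fold lower (background 15.9%) and none higher. They were the tip cell gene Esm1 (201 and 88.4 CPM, log2 -1.18), Pdgfb (19.8 and 11.1 CPM, log2 -0.83) and Angpt2 (49.2 and 32.4 CPM, log2 -0.61). The apelin receptor gene Aplnr had too few UMIs to enter.

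**Figure D2:**
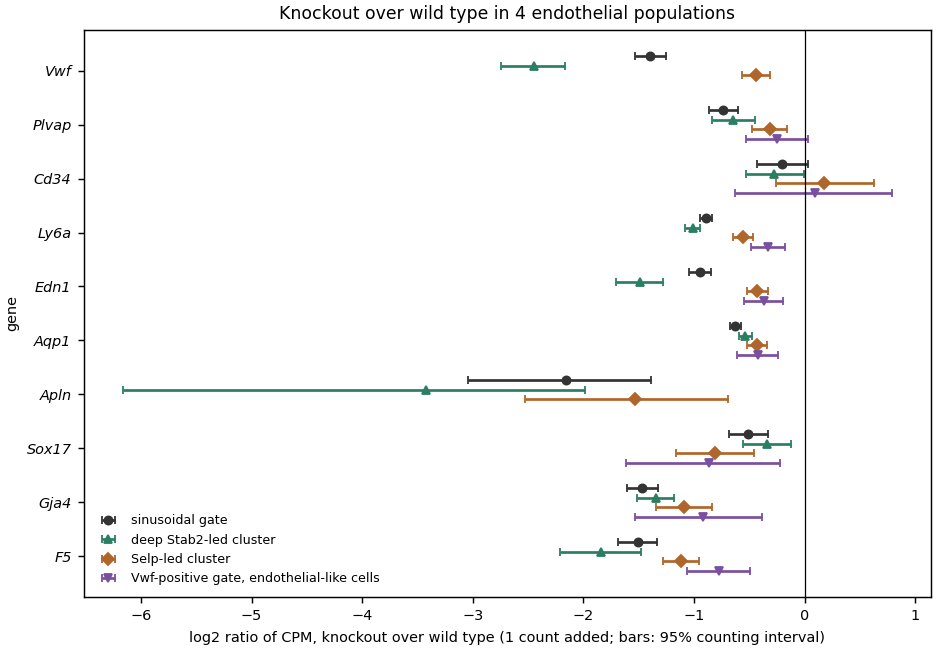
Log2 ratio of knockout over wild type (1 count added) for each gene in the sinusoidal gate, the deep Stab2-led cluster, the Selp-led cluster and the endothelial-like cells of the Vwf-positive gate, with 95% counting intervals; Vwf and Apln are left out of the last, which is set on Vwf and held 17 and 0 Apln UMIs. Points left of the line at 0 are lower in the knockout, and among these populations only Cd34 has points right of it.

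Sox17, the arterial transcription factor gene, was lower in 2 of the 3 clusters. In the Selp-led cluster it stood at 86.7 CPM (73.8 to 101) in the wild type against 49.4 CPM (41.0 to 59.0) in the knockout, a log2 ratio of -0.81 (-1.16 to -0.46). In the deep Stab2-led cluster the levels were 76.2 and 60.1 CPM (log2 -0.34, -0.55 to -0.13). In the shallow cluster they were 105 and 96.3 CPM, with an interval of the ratio that included 0 (-0.63 to 0.39). Thinned shares of Sox17-positive cells were 7.32% and 6.71% in the deep cluster, with overlapping intervals. Its relative Sox7 had 96.0 and 134 CPM in the deep cluster, higher in the knockout (log2 0.48, 0.30 to 0.65). Sox18 had 93.9 and 67.0 CPM there (log2 -0.49, -0.68 to -0.29).

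Gja4, the connexin 37 gene, was at least 2-fold lower in the knockout in each of the 3 clusters. The deep Stab2-led cluster had 162 CPM (149 to 175) in the wild type against 63.5 CPM (58.3 to 69.2) in the knockout (log2 -1.35, -1.52 to -1.18). The shallow cluster had 141 and 37.4 CPM (log2 -1.87, -2.60 to -1.27). The Selp-led cluster had 181 and 84.9 CPM (log2 -1.09, -1.35 to -0.84). At equal depth, 12.0% and 6.10% of deep Stab2-led cells and 16.1% and 7.27% of Selp-led cells carried a Gja4 UMI. The other connexins of endothelium varied in direction. Gja1 (connexin 43) was higher in the knockout in the deep cluster, with 201 and 350 CPM (log2 0.80, 0.68 to 0.92), and Gja5 (connexin 40) had a ratio of 0.32 (-0.17 to 0.84) in the Selp-led cluster. Gjc1 (connexin 45) was sparse, with 21 UMIs in each library over all endothelial-like cells (3.37 and 1.81 CPM, log2 -0.90, -1.84 to 0.05).

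The other arterial genes did not follow Gja4 in the deep Stab2-led cluster. None of the 12 with enough reads there differed by 1.5-fold in either direction (background 11.2% higher and 15.9% lower). Their median was -0.21 against -0.07 for all genes. The highest ratios were those of Nrp1 (0.57) and the arterial ligand gene Efnb2 (163 and 213 CPM, log2 0.39). The lowest were Notch4 (-0.54) and Cxcl12 (-0.38). In the Selp-led cluster 4 of 15 were lower and none higher (background 10.8% each way, median -0.11). The lower were Notch4, Cxcl12, Sema3g and Igfbp3, with ratios from -0.97 to -1.58 on 7 to 49 UMIs per library.

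F5, the coagulation factor V gene, differed between the clusters. The Selp-led cluster had 424 CPM (395 to 455) in the wild type against 196 CPM (178 to 214) in the knockout, a log2 ratio of -1.12 (-1.28 to -0.95). The deep Stab2-led cluster had 44.7 and 12.4 CPM (log2 -1.84, -2.21 to -1.48). The shallow cluster had only 8 and 12 UMIs (12.5 and 17.3 CPM). F5 RNA was concentrated: 5 cells held 61.2% of the knockout UMIs of the Selp-led cluster, 1 of them 128 UMIs, against 20.4% for the 5 richest wild-type cells. The thinned share of Selp-led cells with F5 was 20.9% in the wild type against 10.5% in the knockout.

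Other haemostasis genes showed no common direction, and few differed by 1.5-fold. F8, whose product von Willebrand factor carries in plasma, stood at 634 and 643 CPM in the deep Stab2-led cluster (log2 0.02, -0.05 to 0.09). In the Selp-led cluster F8 stood at 553 CPM in the wild type against 776 CPM in the knockout (log2 0.49, 0.38 to 0.60), opposite in sign to Vwf. Thbd, the anticoagulant thrombomodulin gene, was lower in the knockout in both, with log2 ratios of -0.72 and -0.65. Of the haemostasis genes with enough reads, 1 of 10 was at least 1.5-fold higher (background 11.2%) and 1 lower (background 15.9%) in the deep cluster, and none was higher and 2 were lower in the Selp-led cluster (background 10.8% each way). These shares are near those of all genes. Mmrn1, a multimerin gene, had 22 and 24 UMIs in the Selp-led cluster (log2 -0.29, -1.18 to 0.62). Adamts13, which cleaves von Willebrand factor, had too few UMIs to enter.

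Of the other genes of capillarised or continuous endothelium, 2 of 11 were at least 1.5-fold higher (background 11.2%) and 3 lower (background 15.9%) in the deep Stab2-led cluster, not far from the shares over all genes. The higher were the basement membrane laminin genes Lama4 (225 CPM in the wild type against 356 CPM in the knockout, log2 0.66) and Lamb1, on 3 and 17 UMIs (log2 0.996, -0.46 to 3.74). The lower were the tetraspanin gene Cd9 (398 and 168 CPM, log2 -1.24), the matrix protein gene Sparc (log2 -0.70) and the caveolin gene Cav1 (log2 -0.66, -1.19 to -0.10). In the Selp-led cluster 1 of 10 was higher, Lama4 (log2 0.95), and none was lower (background 10.8% each way). Ly6c1, a relative of Ly6a, was lower in both, with 31.8 and 9.36 CPM in the deep cluster (log2 -1.76, -2.19 to -1.34) and 93.2 and 24.5 CPM in the Selp-led cluster (log2 -1.91). Ly6e, another relative, had ratios of -0.33 and 0.07. Over the 14 sinusoidal identity genes in the deep cluster, 1 was at least 1.5-fold higher (background 11.2%), Bmp2 (log2 0.81). In that list 1 was lower (background 15.9%), Ctsl (log2 -0.94), and the median was -0.19.

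**Figure D3:**
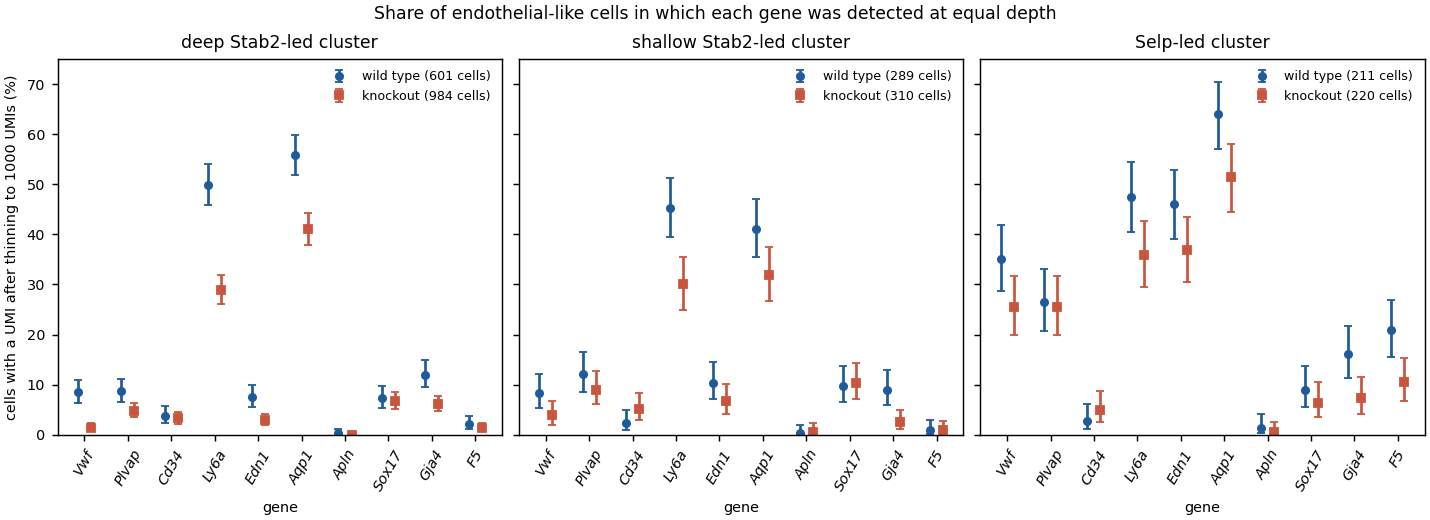
Share of cells with at least 1 UMI of each gene (%) after cells with at least 1000 UMIs were thinned to that number and shallower cells left out, in the 3 endothelial-like clusters, with exact binomial 95% intervals. In the deep Stab2-led cluster the share with Vwf is 8.49% in the wild type against 1.32% in the knockout, while the shares with Cd34 and Sox17 overlap.

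Stress and interferon genes also differed between the libraries in these cells. In the deep Stab2-led cluster 7 of 8 interferon response genes were at least 1.5-fold higher in the knockout (background 11.2%, median 1.03), led by Ifit1 (1.88) and Ifit2 (1.60). Of 10 heat shock and dissociation genes, 8 were higher (median 0.86), led by Hsph1 (2.18) and Bag3 (1.55). The counts were 5 of 8 (background 10.8%) and 4 of 10 in the Selp-led cluster. The share of UMIs from Malat1, a nuclear RNA, was 1.28% in wild-type and 1.67% in knockout endothelial-like cells, and the mitochondrial share was 3.93% and 3.55%. The 6 hepatocyte markers summed to 118 and 237 CPM in endothelial-like cells, with none at 0, beside 79.3 and 211 CPM in B-like cells. The part of these differences in the lower levels of the 10 genes was not tested.

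The 10 genes differed in how far they marked the Selp-led cluster. Set against the deep Stab2-led cluster of the same library, 5 of 10 were at least 2-fold higher in the Selp-led cluster in the wild type (background 4.78%). They were F5 (9.45-fold), Edn1 (9.02-fold), Vwf (5.71-fold), Apln (3.95-fold) and Plvap (3.52-fold), and none was 2-fold lower (background 3.57%). In the knockout 4 of 9 were (background 5.72%): Vwf (22.9-fold), Edn1 (18.8-fold), F5 (15.6-fold) and Plvap (4.41-fold), and the Apln counts of 3 and 16 UMIs were too few to enter. None was 2-fold lower there either (background 4.05%). The genes were chosen with their levels in endothelial cells known, and Edn1 and Vwf are leading genes of the Selp-led cluster. These counts are therefore no evidence beyond the values themselves. Aqp1 (1.13-fold and 1.21-fold), Sox17 (1.14-fold and 0.827-fold), Gja4 (1.12-fold and 1.34-fold) and Cd34 (0.781-fold and 1.07-fold) were near equal in the clusters. Ly6a lay between, at 1.31-fold in the wild type (log2 0.39, 0.31 to 0.47) and 1.79-fold in the knockout (log2 0.84, 0.76 to 0.92). For Cd34 and Sox17 the intervals included 0 on the log2 scale in both libraries. Vwf and Edn1 had a larger contrast between these clusters in the knockout than in the wild type, with intervals that did not overlap.

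Held to endothelial-like cells, the Vwf-positive gate was largely made of Selp-led cells, 77 of its 102 wild-type and 51 of its 62 knockout cells, so its values repeat that contrast in part. In the wild type 4 of 9 genes, leaving out Vwf on which the gate is set, were at least 2-fold higher than in sinusoidal endothelial-like cells (background 6.72%): F5, at 505 against 115 CPM, Edn1, at 1097 against 286 CPM, Plvap, at 399 against 146 CPM, and Apln, on 17 and 39 UMIs. In the knockout 4 of 9 were (background 12%): F5, at 294 against 40.5 CPM, Edn1, at 848 against 159 CPM, Plvap, at 336 against 100 CPM, and Ly6a, at 1131 against 476 CPM. None of the 9 was 2-fold lower in either library (background 5.94% and 5.68%). The genes were chosen on levels in sinusoidal against Vwf-positive cells, so the counts of this contrast only describe the set. With all gated cells, 0 of 9 genes in the wild type (background 9.07%) and 2 of 9 in the knockout (background 12.1%) were 2-fold higher, and 2 (background 7.39%) and 3 (background 13.8%) were 2-fold lower. The gated cells outside the endothelial-like clusters lowered the Vwf-positive levels: Aqp1 was at 306 CPM with them and 956 CPM without them in the wild type.

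Between genotypes, the Vwf-positive endothelial-like cells had a smaller median difference than sinusoidal endothelial-like cells (-0.87 over 10 genes). The medians cover unlike gene sets, since the sinusoidal one includes Vwf and Apln. Sox17 went the other way, at -0.87 in Vwf-positive against -0.42 in sinusoidal endothelial-like cells. Of 8 genes with enough reads, leaving out Vwf, 3 were at least 1.5-fold lower in the knockout (background 13%, median -0.40). They were Gja4, at 140 and 72.6 CPM (log2 -0.92, -1.53 to -0.39), Sox17, at 95.2 and 51.0 CPM (log2 -0.87, -1.61 to -0.22), and F5, at 505 and 294 CPM (log2 -0.77, -1.06 to -0.50). Plvap (399 and 336 CPM) and Cd34 (59.1 and 62.8 CPM) had ratios whose intervals included 0. Apln had 17 UMIs in the wild type against 0 in the knockout, which allows up to 5.89 CPM. Over all cells of the gate 6 of 8 genes were lower (background 18.2%, median -0.76). The 9 mesenchymal markers, none at 0, summed to 1913 and 809 CPM in that gate, against 121 and 102 CPM in its endothelial-like cells, and their part in the count was not tested.

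Vwf-positive cells were a smaller share of gated cells in the knockout. The rest of the cells with at least 5 pan-endothelial UMIs, neither sinusoidal nor with a Vwf UMI, were 559 wild-type and 827 knockout cells, of which only 18.6% and 18.5% were endothelial-like. The Vwf-positive gate held 9.08% of all gated cells, these included, in the wild type against 5.08% in the knockout (log2 -0.84, -1.20 to -0.49). When only endothelial-like cells were counted, it held 9.14% and 4.01%. The gates are set on UMI counts and knockout cells were deeper, so depth enters these shares. With gates applied to cells thinned to 2000 UMIs, at lower minimum sums, the shares were 5.82% and 3.79% (log2 -0.62, -1.10 to -0.14). The cells were also spread differently over the clusters. The Selp-led cluster made up 17.3% (15.2 to 19.5%) of endothelial-like cells in the wild type against 13.6% (12.0 to 15.4%) in the knockout, and the deep Stab2-led cluster 49.2% and 61.0%. When the knockout levels were recomputed at the wild-type mix of UMIs over the 3 clusters, the log2 ratio over all endothelial-like cells changed from -1.20 to -0.78 for Vwf. It changed from -0.98 to -0.56 for Edn1, from -1.58 to -1.19 for F5 and from -0.71 to -0.47 for Plvap. For Gja4 it changed from -1.31 to -1.30, for Aqp1 from -0.50 to -0.49, and for Ly6a from -0.91 to -0.82. The genes rich in the Selp-led cluster were the ones whose pooled ratio moved most with the mix.

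Fewer of the genes were detected together in knockout cells. At 1000 UMIs per cell, wild-type endothelial-like cells held a mean of 1.73 of the 10 genes and knockout cells 1.13. None of the 10 was detected in 14.4% of 1101 wild-type and 32.3% of 1514 knockout cells. At least 3 were detected in 24.6% and 11.1%. In the Selp-led cluster at least 3 were detected in 57.3% and 37.3% of cells, and in the deep Stab2-led cluster in 18.1% and 5.89%. Within the Selp-led cluster, Edn1 was detected in 58.1% of the 74 Vwf-positive wild-type cells and 39.4% of the other 137. In its knockout cells the shares were 50% of 56 and 32.3% of the other 164. In the deep Stab2-led cluster of the wild type Edn1 was detected in 1 of 51 Vwf-positive cells and 44 of the other 550. The knockout deep cluster had 1 of 13 and 27 of the other 971. With 1 Vwf-positive cell holding Edn1 in each library, no direction can be read there. In the shallow Stab2-led cluster Edn1 was detected in 7 of 24 Vwf-positive wild-type cells and 23 of the other 265. Its knockout cells had 3 of 12 and 18 of the other 298.

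Much of the RNA of some of the genes came from other cells. Of the UMIs of all 10 genes together, 44.5% in each library lay outside the endothelial gates, and 56.3% and 57.4% lay outside the endothelial-like clusters. Ly6a accounted for most of this, with 19331 of the 25272 wild-type and 21601 of the 28302 knockout UMIs outside those clusters. By share of a gene's own UMIs, 76.7% and 78.8% of Ly6a lay outside, and in the wild type 66.3% of Cd34 and 65.6% of Plvap. Aqp1 (13.8% and 14.9%) and Sox17 (13.4% and 13.8%) lay outside them least. For F5 the share was 48.3% in the wild type against 69.7% in the knockout.

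**Figure D4:**
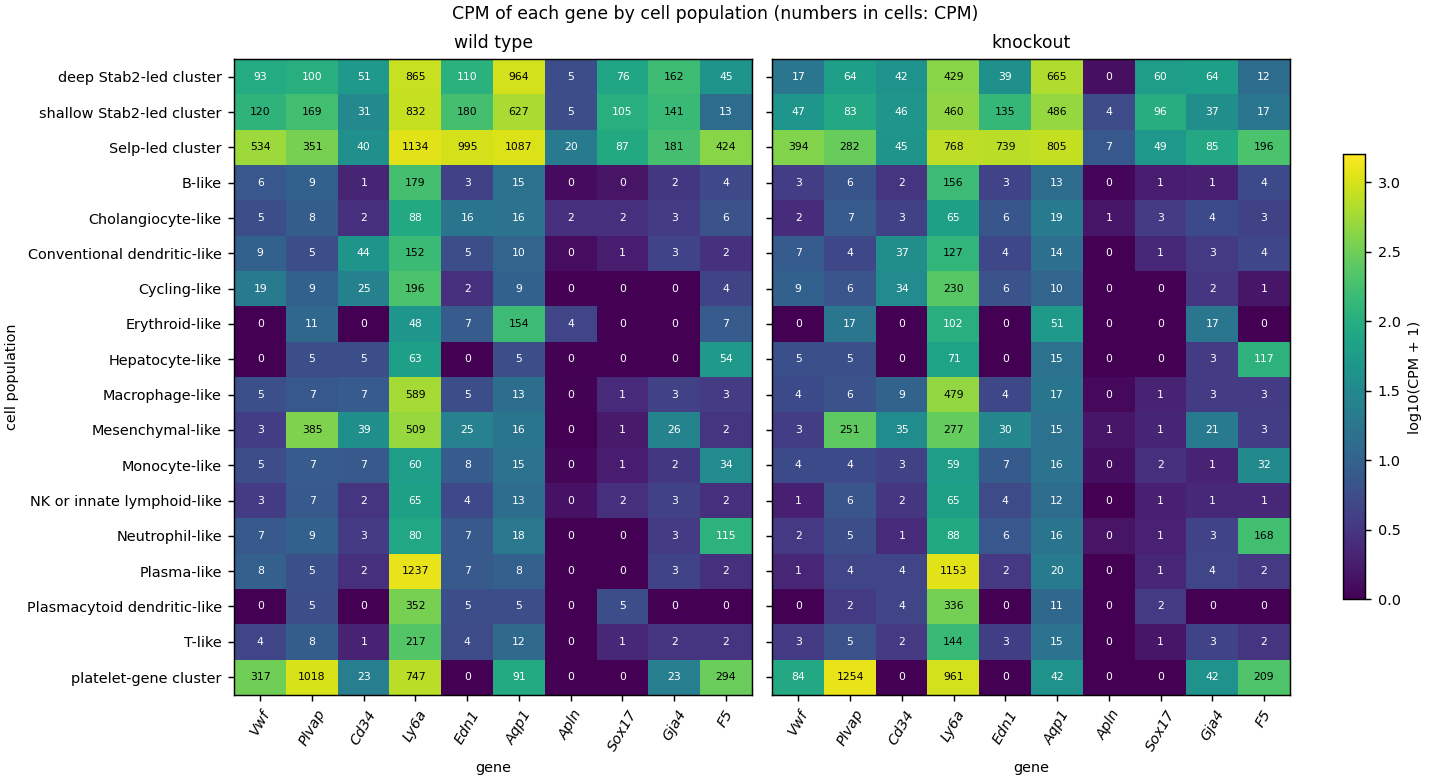
Level of each gene (CPM, colour on a log10(CPM + 1) scale, number in each box) in the 3 endothelial-like clusters, in named cell classes outside the gates and in the platelet-gene cluster, wild type on the left and knockout on the right. Plvap is seen in mesenchymal-like cells at 385 and 251 CPM, F5 in neutrophil-like cells at 115 and 168 CPM and Ly6a in plasma-like cells at 1237 and 1153 CPM.

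Plvap was detected in mesenchymal-like cells outside the gates, the class of stellate cells and fibroblasts, at 385 CPM (353 to 418) in the wild type against 251 CPM (228 to 275) in the knockout (log2 -0.62, -0.80 to -0.43). With the mesenchymal cells that the gates had taken included, the levels were 553 and 325 CPM, and a Plvap UMI was found in 34.4% and 26.0% of cells at equal depth. B-like cells had 0.928% and 0.769%. The small platelet-gene cluster, 35 and 22 cells led by Ppbp and Pf4, had 45 and 30 Plvap UMIs, or 1018 and 1254 CPM. That cluster also carried 8 mesenchymal markers and was left without a class name. Its Vwf levels were 317 and 83.6 CPM, on 14 and 2 UMIs.

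Ly6a stood at 589 CPM in wild-type and 479 CPM in knockout macrophage-like cells, at 1237 and 1153 CPM in plasma-like cells and at 509 and 277 CPM in mesenchymal-like cells. The mesenchymal ratio (log2 -0.88, -1.05 to -0.71) was near that of sinusoidal cells (-0.89), and the macrophage ratio was smaller (-0.30, -0.34 to -0.26). Cd34 was at 44.2 and 36.9 CPM in conventional dendritic-like cells and at 38.6 and 35.2 CPM in mesenchymal-like cells, close to its endothelial levels. Aqp1, also the Colton blood group antigen of red cells, was at 154 and 50.8 CPM in erythroid-like cells. Gja4 was at 25.7 and 20.7 CPM and Edn1 at 25.0 and 29.6 CPM in mesenchymal-like cells. Cholangiocyte-like cells had 55.7 and 16.7 CPM of Edn1 with gated cells included, but 5 cells held 73.3% and 71.3% of it.

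Opposite to all endothelial-like cells together, F5 was higher in the knockout in neutrophil-like and hepatocyte-like cells. Neutrophil-like cells had 115 CPM (100 to 131, 222 UMIs) in the wild type against 168 CPM (151 to 186, 346 UMIs) in the knockout (log2 0.54, 0.30 to 0.80). Hepatocyte-like cells had 53.6 and 117 CPM on 11 and 46 UMIs (log2 1.04, 0.16 to 2.23). Monocyte-like cells had 34.4 and 32.3 CPM. B-like cells had 4.14 and 4.22 CPM. At equal depth 8.41% and 11.5% of neutrophil-like cells carried an F5 UMI.

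Each gene was matched with the genes whose log2(CPM + 10) profile was most like its own over 17 populations in 2 libraries, 34 points that share libraries and depth, among 5110 genes. The nearest to Vwf were Mecom (r = 0.93) and Selp (0.92), and the nearest to Edn1 were Fbln2 (0.95) and Cdh13 (0.94). Sox17 was nearest to Tek (0.97) and Emcn (0.97), both endothelial genes, and Gja4 to Ramp2 (0.95) and Apold1 (0.94). Aqp1 was nearest to Wnt2 (0.95) and Gpihbp1 (0.94). Plvap was nearest to Bgn and Adamts4 (both 0.96), of which Bgn encodes the matrix proteoglycan biglycan. Cd34 was nearest to P3h2 (0.88) and Ece1 (0.88), Apln to Ackr1 (0.83) and Inhbb (0.82), and F5 to Lrg1 (0.88) and Upp1 (0.79). Ly6a had no close match, with Creb3l2 at 0.69 and Pml at 0.65.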

How the data were processed

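Non-parenchymal liver cells of 1 wild-type and 1 knockout library were analysed. The deposited matrices hold raw UMI counts per gene and barcode. Per the file headers, the authors' counting tool was Cell Ranger 7.0.1. The submitters' processing notes name Cell Ranger 3.1.0, Seurat and mm10 instead, and this difference is unresolved. The treatment of intronic reads and of strand is not given in the sources used here. The libraries held 11783 and 12872 barcodes, 82499307 and 118226367 UMIs and at least 500 UMIs per barcode. GENCODE M21, used for positions, holds 99.6% of the identifiers.

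Barcodes under 200 genes or over 20% mitochondrial UMIs were removed (413 and 149). Doublets were scored with Scrublet (scanpy 1.11.5), and the highest scores were removed at 0.8% per 1000 cells, 1034 and 1295 cells, because the automatic threshold marked 0 wild-type and 717 knockout cells. Both libraries were clustered together (2000 variable genes, 30 components, 15 neighbours, Leiden resolution 1, leidenalg 0.10.2), leaving out the 10 genes, the gene lists and Mfap2. Of 31 clusters, 5 were unnamed. A class was named "-like" from at least 3 of its markers.

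UMIs were summed per population and library. A minimum of 20 UMIs, both libraries together, was set for counts and medians. Ratios had 1 count added, CPM have exact Poisson, shares Clopper-Pearson and ratios exact conditional intervals at 95%. A count of 0 was given as up to 3 counts. The calculation of the ratio intervals was checked on simulated counts, in which 200 genes were changed. For the sinusoidal gate, the ratio set in the simulation fell inside 95.6% of 15186 intervals. For the Selp-led cluster it fell inside 96.2% of 10769. This check concerns the calculation only. The intervals cover counting error and not the spread of UMIs between cells, so their coverage in the measured sums was not tested.

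The 10 genes and all lists were chosen with earlier results of these data known. Named were every one of the 10 genes, the genes at the ends of each list's ratios, fixed partners such as Ednrb, Gja1 and F8, and the 2 most alike profiles per gene among genes of at least 50 CPM in an endothelial gate. Other genes of a list were named where its count of differing genes was small, after their values were seen. Alternatives to doublet removal, filters, gates, depth and scaling are given in the closing section.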

Additional observations from a re-analysis of the deposited data

Results flagged for a closer look

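F5 differed between the libraries in opposite directions in different cells. In endothelial-like cells its log2 ratio of knockout over wild type was -1.58. In hepatocyte-like cells it was 1.04 (0.16 to 2.23, 53.6 and 117 CPM), and in neutrophil-like cells 0.544 (0.30 to 0.80, 115 and 168 CPM). The difference between the cell types was not tested, since each genotype has 1 library.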

How the results depend on the processing

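Values below are medians of log2 ratios over the genes unless named otherwise. In sinusoidal cells the median of the 10 genes was -0.92. Over 14 alternatives the median of the genes with enough UMIs stayed between -1.18 and -0.72. It was -0.80 with the automatic doublet threshold, -1.08 with a sinusoidal sum of at least 10 UMIs, -0.72 without gated cells holding 3 or more UMIs of other lineages' markers, and -1.18 with Stab2-led clusters only. The value of -0.72 covers 8 genes, without F5 and Apln, in 187 wild-type and 193 knockout cells. Thinning cells before summing left 9 genes (-0.93), without Apln. In the Vwf-positive gate, where alternatives used 8 or 9 genes unless given, the median was -0.76 over 8 genes. It was -0.46 with a sinusoidal sum of at least 10, -1.06 with at least 3, -0.35 with at least 2 Vwf UMIs, -0.46 with gates on cells thinned to 2000 UMIs and -0.40 in endothelial-like clusters only. It turned to 0.29 without cells holding other lineages' markers, which left 19 wild-type and 11 knockout cells and only 4 genes with enough UMIs. That alternative also turned Plvap (0.75), Edn1 (0.55) and Aqp1 (0.0255) in the Vwf-positive gate and Sox17 (0.0886) in sinusoidal cells. The ratio of Vwf-positive shares stayed between -1.19 and -0.62 over 9 alternatives. Without other lineages' markers it was -0.95, with an interval that included 0 (-2.17 to 0.19).

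The Vwf-positive over sinusoidal median depended most on the gates. In the wild type it was -0.04 and ranged from -0.36 to 1.35 over 15 alternatives. It was -0.36 with the sinusoidal gate held to Stab2-led clusters, -0.31 without the 5 cells richest in each gene and -0.17 with a sinusoidal sum of at least 10. It was 0.0605 with no doublets removed and with the automatic threshold, 0.37 with a sinusoidal sum of at least 3, 0.74 with at least 2 Vwf UMIs, 0.66 with thinned gates, 1.35 without other lineages' markers, 0.42 from averaged per-cell CPM, 0.51 with cells thinned before summing and 0.70 in endothelial-like clusters only. In the knockout it was -0.06 and ranged from -0.26 to 1.42 over 15 alternatives. It was -0.26 with the sinusoidal gate held to Stab2-led clusters. It was 1.42 with at least 2 Vwf UMIs, 1.004 with thinned gates, 1.14 without other lineages' markers, 0.43 from averaged per-cell CPM, and 0.64 in endothelial-like clusters only. The values without other lineages' markers cover 7 genes in each library, against 9 in the main setting.

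The share of the genes' UMIs outside the gates was 44.5% in each library. It was 40.2% and 39.8% with no doublets removed, 40.2% and 42.2% with the automatic threshold, 42.9% and 40.9% with a sinusoidal sum of at least 3, 52.1% and 53.2% with thinned gates, 97.2% and 98.1% without other lineages' markers, and 56.8% and 57.6% in endothelial-like clusters only. The alternatives that use the clusters or platelet markers were chosen after seeing the data. Gated cells left out for other lineages' markers, or for lying outside the endothelial-like clusters, were counted as outside the gates. The higher shares of those settings therefore follow from the setting. The cause of the other changes was not tested. No paired analysis was possible because each genotype has 1 library, and no replicate could be left out. Depth limits Apln most: with 57 and 22 UMIs, its cluster values carry wide intervals.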
